A study of Mus musculus with 4 samples.

Results

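Collagens and laminins, the chains of the fibrils and basement membranes of the extracellular matrix, were compared between the brains of mice with and without Atm, a kinase of the DNA damage response. The members were every probe whose annotated gene symbol has the form of a collagen alpha chain (Col, a type number, a, a chain number) or of a laminin alpha, beta or gamma chain (Lama, Lamb or Lamc with a number). This gave 110 probes for 50 genes, 41 collagens and 9 laminins, out of 45281 probes and 19057 named genes. Brain total RNA was hybridised to Illumina bead arrays, 1 array per sample. The 2 Atm+/+ and 2 Atm-/- samples came from mice of a mixed 129J x C57BL/6 background. The labels used here give no Atm allele, age, sex or dissected brain part, nor whether replicates are different mice. The p-values therefore weigh differences against a sample-to-sample spread that may be technical.

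A collagen molecule is a triple helix of alpha chains with a regular glycine repeat. Fibrillar collagens pack into the banded fibrils of connective tissue, type IV collagens form the sheet-like network of basement membranes, and further subfamilies decorate fibrils, span the cell membrane or build short-chain networks. Laminins are trimers of 1 alpha, 1 beta and 1 gamma chain that lie beside type IV collagen in basement membranes and bind integrins and dystroglycan. In brain these proteins belong mostly to blood vessels, meninges and choroid plexus, and the parenchyma between them holds little fibrillar collagen.

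Values are log2 signals, and a change is the difference of the mean log2 signal, Atm-/- minus Atm+/+, with its moderated standard error (SE) from limma. A probe was tested when it lay above a background level of 5.64 on at least 2 of the 4 arrays. It was past the threshold at a Benjamini-Hochberg adjusted p under 0.05 over the 22345 tested probes, and "rose" and "fell" are used of such probes only. Of all tested probes 13.1% passed. The Atm+/+ arrays differed from each other over 2-fold at 2533 tested probes (11.3%) and the Atm-/- arrays at 165 (0.738%). A run with 1 array left out takes its measured spread from the pair of the other genotype alone. Its p-values and calls therefore do not weigh the spread between arrays of the genotype left with 1 array. Atm fell to background on both Atm-/- arrays at 2 of its 3 tested probes (ILMN_1258206, at least 4.45-fold, adjusted p = 0.00226), while ILMN_2492491 changed by 0.61 ± 0.37 and did not pass. Marker genes of brain regions also differed between the genotypes, with counts to be read beside the 14.4% of all tested genes that passed. Of 13 tested markers of cortical and hippocampal neurons, 10 rose, and of 12 tested markers of cerebellar granule cells and interneurons, 10 fell. Of 9 tested striatal markers 6 rose, and 7 of 7 Purkinje cell markers and 15 of 17 markers of thalamus, hypothalamus and brainstem fell. With 1 array left out, 6 to 11 cortical and hippocampal and 4 to 9 striatal markers rose, and 8 to 11 granule cell, 6 to 7 Purkinje cell and 8 to 15 thalamic, hypothalamic and brainstem markers fell. With the dissected part not given, genotype and region cannot be told apart for any change below, and in whole tissue fewer cells of a type and less RNA per cell cannot be told apart either.

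Of the 110 member probes, 42 were tested, standing for 31 genes, and 11 passed, 9 lower and 2 higher in Atm-/-. That is 26.2% of the tested member probes. With each gene represented by its brightest tested probe, 5 of 31 genes fell and 2 rose, or 22.6% in all. Among all 12217 tested genes 14.4% passed, 6.89% lower and 7.5% higher. The median change of the 31 genes was -0.18, against -0.01 over all tested genes. These counts cover the genes bright enough to test, and 3 of the 11 probes that passed were at background on both Atm-/- arrays. By class, 0 of 6 fibrillar genes, 1 of 4 type IV genes, 6 of 14 other collagen genes and 0 of 7 laminin genes passed with limma. At an unadjusted p under 0.05 there was 1 fibrillar gene, 1 type IV gene, 8 other collagen genes and 1 laminin gene. The share of all tested genes under that unadjusted cutoff was not counted. These counts, and those of the lists below, are therefore not read against a background. On 18 of the 31 genes (58.1%) the 2 genotypes did not overlap, 11 lower and 7 higher in Atm-/-. Among all tested genes this held for 61.7%, 32.2% lower and 29.5% higher.

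**Figure D1:**
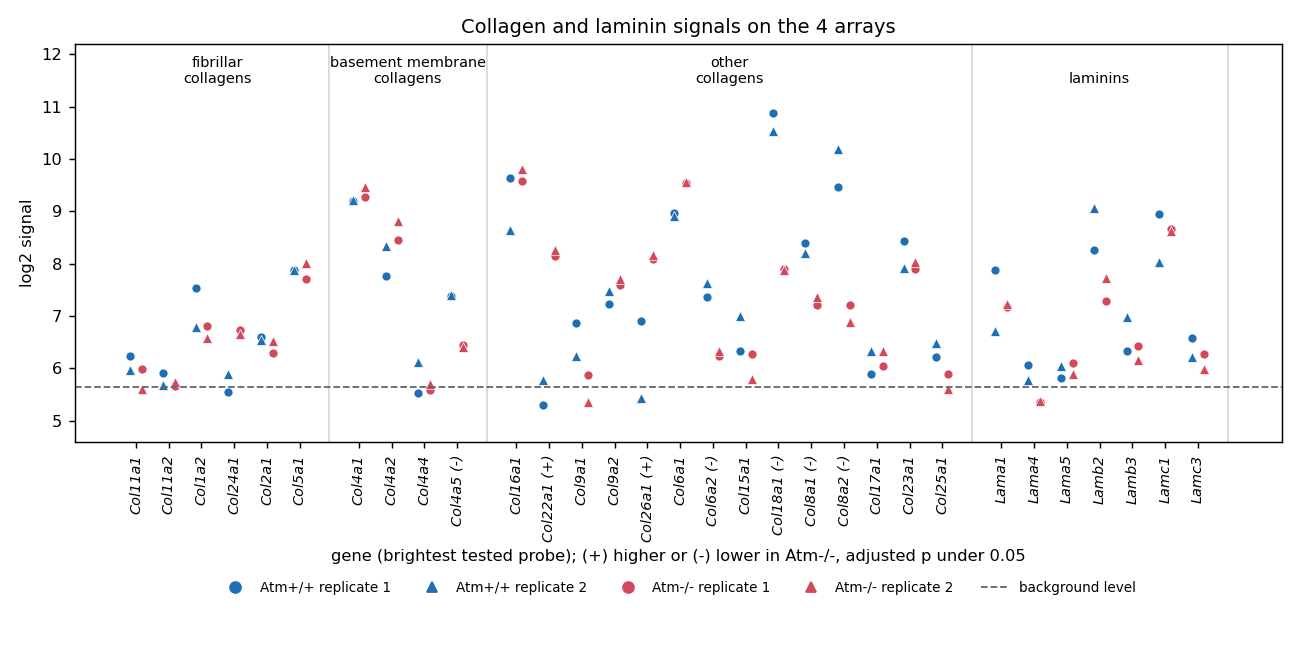
Log2 signal (vertical axis) of the brightest tested probe of each of the 31 tested genes on the 4 arrays, by class, with the background level of 5.64 dashed. Each point is 1 array, and heights should be compared between arrays of a gene and not between genes, because probes differ in brightness. Col18a1 and Col8a2 stand far lower on both Atm-/- arrays, and Col22a1 and Col26a1 stand higher on both.

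The 3 changes that held whichever array was left out belonged to Col18a1, Col8a2 and Col22a1. Col18a1 encodes the alpha chain of collagen XVIII, a multiplexin of vascular and epithelial basement membranes whose C-terminal fragment is endostatin. Probe ILMN_2735184 read 10.89 and 10.54 in Atm+/+ and 7.90 and 7.89 in Atm-/-. The Atm-/- arrays lay almost together and well under both Atm+/+ arrays. The gene fell by 2.82 ± 0.26 (SE, n = 2 per genotype) with a limma adjusted p of 0.0012, a 7.06-fold lower signal, and the adjusted p stayed at or under 0.00787 in every alternative. Its probe ILMN_2937542 read 5.94 and 6.31 against 5.25 and 5.53. That probe had the same direction without passing (-0.74 ± 0.27, adjusted p = 0.123) and read background in Atm-/-, at least 1.40-fold lower, and the remaining probe, ILMN_1225839, was at background on all 4 arrays.

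Col8a2 and Col8a1 encode the chains of collagen VIII, a short-chain collagen that forms hexagonal networks and is best known from Descemet's membrane of the cornea and from vessel walls. Col8a2 read 9.47 and 10.20 in Atm+/+ and 7.21 and 6.88 in Atm-/- at ILMN_2688966. The genotypes were separated by more than 2 log2 units, and the Atm+/+ pair was the more scattered. Col8a2 fell by 2.79 ± 0.32 (adjusted p = 0.00273, 6.90-fold lower), with an adjusted p of at most 0.0158 in the alternatives. Its other 2 probes were not tested. Col8a1 read 8.40 and 8.21 against 7.21 and 7.37 at ILMN_1255925, a fall of 1.02 ± 0.25 (adjusted p = 0.0421). Its second probe, ILMN_2503553, read 8.41 and 7.58 against 7.23 and 6.69 and changed by a similar -1.03 ± 0.36 but did not pass (adjusted p = 0.103). The arrays of each genotype were further apart there. At the first probe the adjusted p rose to 0.425 or 0.321 on leaving out Atm-/- replicate 1 or 2, and to 0.0562 with an intensity trend in the variance model. Collagen X, the other member of the short-chain family, had 1 probe, Col10a1, at background on all 4 arrays.

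The stretches before the annotated starts of these 3 genes are shown because their signals were lower together. They are the 250 bases upstream of each start in RefSeq on GRCm38.p6, written 5′ to 3′ on the gene's strand, and capitals mark GGGCGG (the GC box), CCAAT and TATAAA on either strand, overlapping matches included. Col18a1 has 2 annotated starts, 52825 bases apart, at chr10:77166531-77166780 and chr10:77113706-77113955 (minus strand). Col8a2 lies at chr4:126286544-126286793 (plus strand) and Col8a1 at chr16:57754738-57754987 (minus strand).
Col18a1 upstream start: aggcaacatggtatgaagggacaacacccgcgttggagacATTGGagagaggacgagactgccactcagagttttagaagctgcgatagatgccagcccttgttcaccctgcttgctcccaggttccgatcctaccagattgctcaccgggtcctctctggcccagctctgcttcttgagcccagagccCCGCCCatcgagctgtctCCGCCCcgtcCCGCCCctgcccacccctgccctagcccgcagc
Col18a1 downstream start: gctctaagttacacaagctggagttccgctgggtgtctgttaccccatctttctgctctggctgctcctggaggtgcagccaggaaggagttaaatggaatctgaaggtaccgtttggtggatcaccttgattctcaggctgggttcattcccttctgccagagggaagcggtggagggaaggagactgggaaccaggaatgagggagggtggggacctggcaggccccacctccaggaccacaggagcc
Col8a2: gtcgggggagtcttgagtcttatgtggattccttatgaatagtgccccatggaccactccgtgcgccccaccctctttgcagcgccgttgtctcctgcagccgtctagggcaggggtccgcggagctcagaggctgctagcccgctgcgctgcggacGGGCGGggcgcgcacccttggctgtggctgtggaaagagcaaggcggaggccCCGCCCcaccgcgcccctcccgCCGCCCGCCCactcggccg
Col8a1: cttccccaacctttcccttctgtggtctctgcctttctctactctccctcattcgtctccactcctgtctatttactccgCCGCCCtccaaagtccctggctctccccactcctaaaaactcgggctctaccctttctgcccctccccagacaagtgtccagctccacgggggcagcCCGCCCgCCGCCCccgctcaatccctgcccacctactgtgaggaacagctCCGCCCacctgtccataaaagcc
The GC box occurs 3 times before the first Col18a1 start, 4 times before Col8a2 and 4 times before Col8a1. The second Col18a1 start has no match to any of the 3 motifs in this window, and no TATAAA stands in any of the 4 windows. Among 32851 promoters in the table, 32.7% hold at least 1 GC box in the same window, 33.8% CCAAT and 12.4% TATAAA. Those shares do not tell how common 3 or 4 copies are. The G and C content is 62.0% and 57.6% before the first and second Col18a1 starts, 70.0% before Col8a2 and 60.8% before Col8a1. The median over all promoters is 52.4%. A match describes letters only, and which Col18a1 start the probes read is not known from the annotation.

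Col15a1, the other multiplexin, did not pass. It read 6.33 and 7.00 in Atm+/+ and 6.28 and 5.79 in Atm-/- (-0.63 ± 0.33, adjusted p = 0.249). Here the nearest arrays of the 2 genotypes were almost level, unlike the wide gap at Col18a1.

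**Figure D2:**
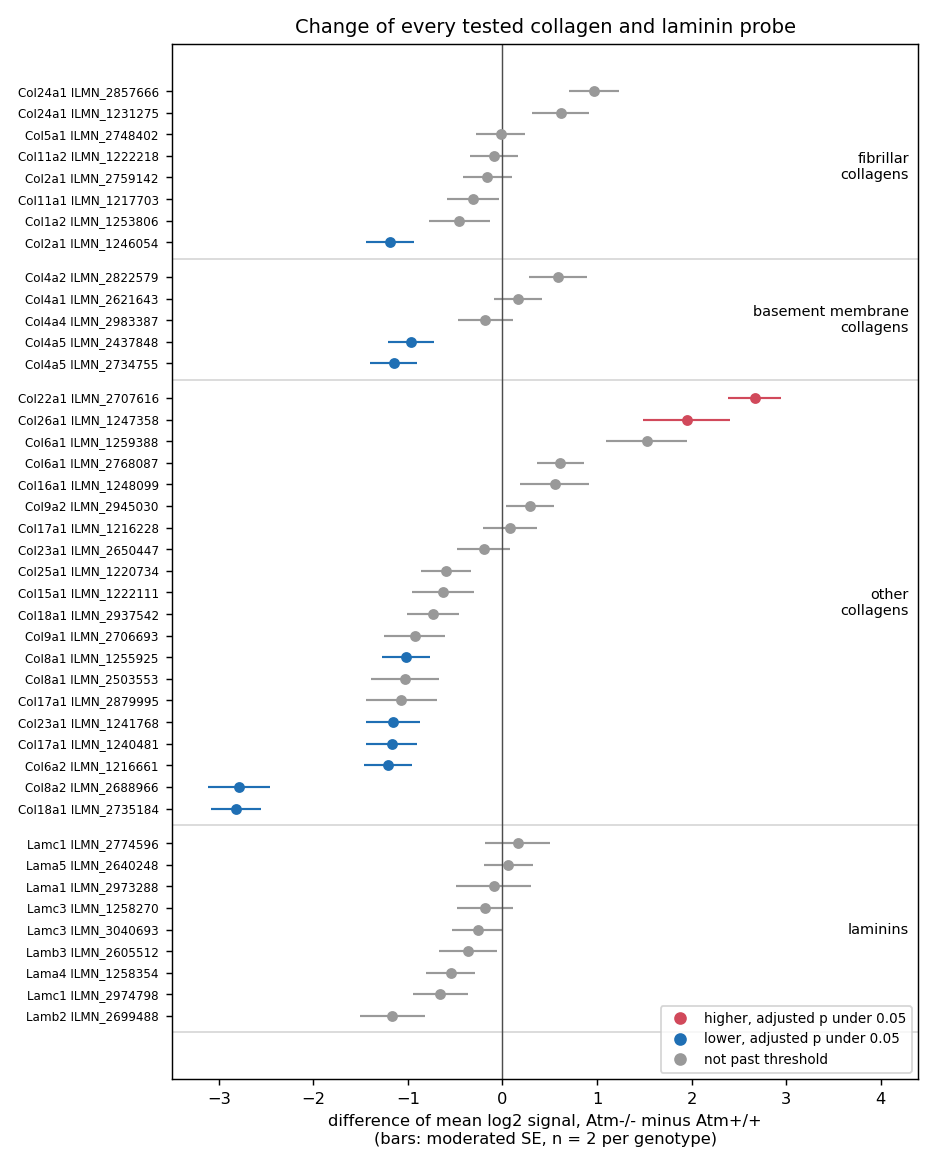
Difference of mean log2 signal, Atm-/- minus Atm+/+ (horizontal axis), with its moderated SE, for each of the 42 tested collagen and laminin probes, by class. Of the 9 probes that fell, 6 belong to other collagens, 2 to type IV and 1 to a fibrillar collagen, both that rose are other collagens, and all 9 laminin probes are grey, not past the threshold.

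Col22a1 rose most. It encodes collagen XXII, a fibril-associated collagen known from tissue junctions such as that between muscle and tendon. Probe ILMN_2707616 read 5.29 and 5.78 in Atm+/+ and 8.15 and 8.26 in Atm-/-. Of the Atm+/+ arrays 1 lay under the background level and the other just over it, whereas both Atm-/- arrays were far above. The rise was 2.67 ± 0.28 (adjusted p = 0.00191, 6.35-fold), and the adjusted p was at most 0.0129 in the alternatives that kept the probe. Its other probe, ILMN_1222869, was at background on all 4 arrays, so the rise rests on 1 probe. Col26a1, a collagen with a short triple helix and an EMI domain, rose by 1.95 ± 0.46 (adjusted p = 0.0349, 3.86-fold) at ILMN_1247358. Its other probes, ILMN_1234674 and ILMN_1247922, were at background on all 4 arrays, so this rise also rests on 1 probe. Probe ILMN_1247358 read 6.91 and 5.44 in Atm+/+ and 8.08 and 8.17 in Atm-/-, so the Atm+/+ arrays themselves differed by over 2-fold. Leaving out Atm-/- replicate 1 or 2 took the adjusted p to 0.119 or 0.139, and with no filter on dim probes it was 0.101.

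The remaining fibril-associated collagens did not pass. Col16a1 read 9.64 and 8.64 against 9.58 and 9.81, with overlapping genotypes (0.55 ± 0.37, adjusted p = 0.354). Of the chains of collagen IX, a cartilage collagen that sits on type II fibrils, Col9a2 changed by 0.29 ± 0.26 (adjusted p = 0.493). Col9a1 read 6.86 and 6.24 in Atm+/+ and 5.87 and 5.37 in Atm-/- (-0.93 ± 0.32, adjusted p = 0.105). The arrays of Col9a1 did not overlap, but both pairs were scattered.

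Transmembrane collagens gave split results between probes of the same gene. Col17a1 encodes the hemidesmosome protein that anchors epithelial cells to the basement membrane. Its probe ILMN_1240481 read 6.41 and 6.84 in Atm+/+ and 5.45 and 5.46 in Atm-/-, where it was at background. It fell by 1.17 ± 0.27 (adjusted p = 0.0328), at least 1.98-fold. Probe ILMN_2879995 changed by -1.07 ± 0.38 without passing (adjusted p = 0.108), and ILMN_1216228, the brightest over all 4 arrays, by 0.08 ± 0.28 (adjusted p = 0.883). Col23a1, a shed transmembrane collagen, read 7.58 and 7.02 against 6.16 and 6.13 at ILMN_1241768, a fall of 1.16 ± 0.29 (adjusted p = 0.0408). At its brighter probe, ILMN_2650447, the genotypes overlapped, with 8.43 and 7.92 against 7.91 and 8.04 (-0.20 ± 0.28, adjusted p = 0.680). Both calls ended on leaving out either Atm-/- array, at adjusted p of 0.291 to 0.319, and that of Col23a1 also with an intensity trend (0.0511) or no filter on dim probes (0.0623). Col25a1, whose product is a neuronal collagen found in amyloid plaques, read 6.22 and 6.48 against 5.89 and 5.62 and did not pass (-0.60 ± 0.27, adjusted p = 0.183).

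**Figure D3:**
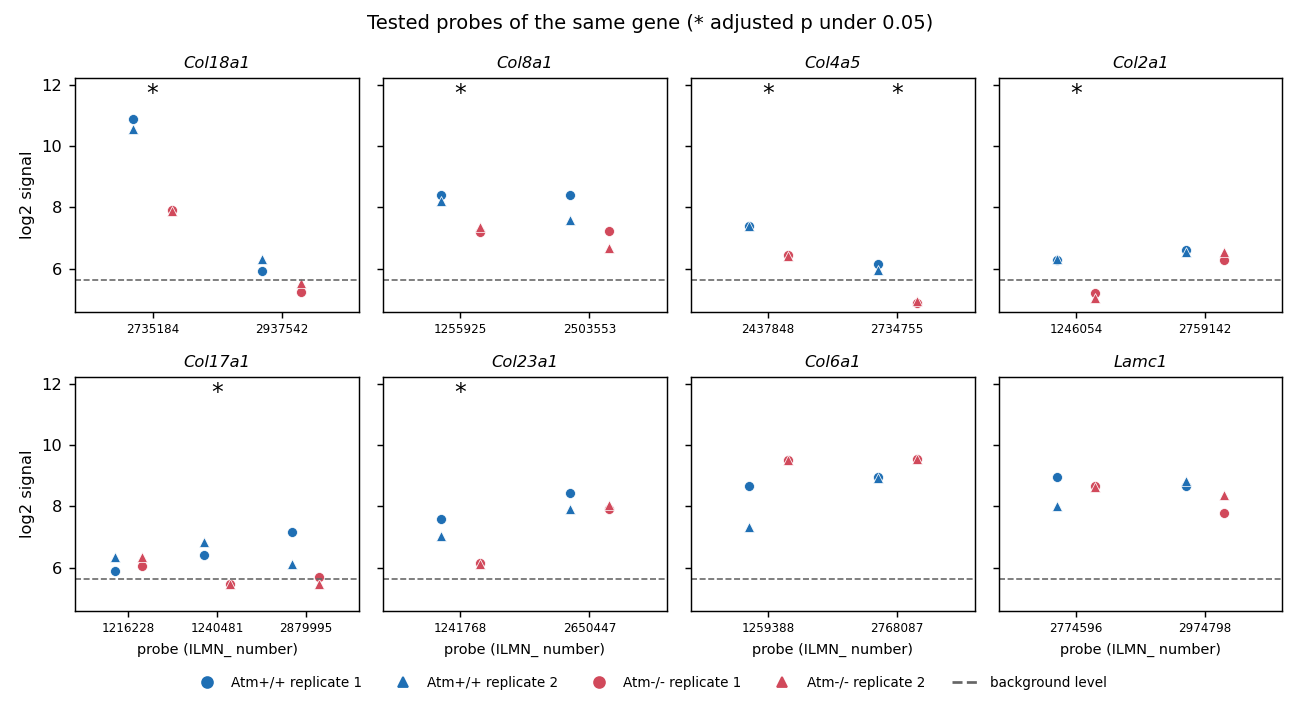
Log2 signal (vertical axis) of the tested probes of 8 genes on the 4 arrays, with the background level dashed and an asterisk over probes past the threshold. In Col4a5 both probes fell. In Col18a1, Col8a1, Col2a1, Col17a1 and Col23a1 only 1 tested probe passed, and of their other tested probes ILMN_1216228 of Col17a1 alone had a difference above 0.

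Collagen VI forms beaded microfilaments from an alpha 1, an alpha 2 and a further chain, and the measured chains read in opposite directions. Of the Col6a2 probes, ILMN_1258759 was at background on all 4 arrays. At ILMN_1216661 Col6a2 read 7.37 and 7.63 in Atm+/+ and 6.24 and 6.33 in Atm-/-, a fall of 1.21 ± 0.26 (adjusted p = 0.0249). Dropping Atm-/- replicate 1 or 2 ended that call (adjusted p = 0.290 and 0.242). Col6a1 was higher in Atm-/- on every array at both tested probes, without passing. Its brighter probe, ILMN_2768087, read 8.96 and 8.92 against 9.55 and 9.55 (0.61 ± 0.25, adjusted p = 0.147). Probe ILMN_1259388 read 8.65 and 7.31 against 9.52 and 9.49 (1.53 ± 0.43, adjusted p = 0.0598). Its difference was 2.19 without Atm+/+ replicate 1. The difference between the 2 genes was not tested. Col6a4, Col6a5 and Col6a6 were at background on all 4 arrays.

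Among the type IV collagens of basement membranes, the ubiquitous chains did not pass and the alpha 5 chain fell. The difference between these chains was not tested. Col4a1 and Col4a2 encode the chains of the network found in nearly all basement membranes, including those of brain capillaries. Col4a1 read 9.21 and 9.21 in Atm+/+ and 9.27 and 9.47 in Atm-/- (0.16 ± 0.25, adjusted p = 0.710). Col4a2 read 7.76 and 8.33 against 8.45 and 8.82 (0.59 ± 0.30, adjusted p = 0.244). In both genes each Atm-/- array was above each Atm+/+ array, the nearest arrays being nearly level. The difference of Col4a2 was 0.88 without Atm+/+ replicate 2.

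Col4a5 encodes the alpha 5 chain, which builds a more restricted network and is mutated in X-linked Alport syndrome in humans. Probe ILMN_2437848 read 7.39 and 7.40 in Atm+/+ and 6.44 and 6.42 in Atm-/-. Probe ILMN_2734755 read 6.16 and 5.96 against 4.89 and 4.93. Replicates lay close together at both probes and the genotypes were clearly apart. Col4a5 fell by 0.97 ± 0.25 at the first (adjusted p = 0.0439) and by 1.15 ± 0.25 at the second (adjusted p = 0.0274), the latter to background and by at least 1.34-fold. It was the single member with more than 1 probe past the threshold. Without either Atm-/- array both calls were lost (adjusted p of 0.280 to 0.407), although the change itself stayed between -1.17 and -0.96. With an intensity trend in the variance model ILMN_2437848 had an adjusted p of 0.0681. Of the partner chains, Col4a4 read 5.54 and 6.12 against 5.58 and 5.70, near background (-0.18 ± 0.29, adjusted p = 0.720), a difference that turned to 0.11 without Atm+/+ replicate 2. Col4a3 was at background on all 4 arrays, and no Col4a6 probe was above it on more than 1 array.

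Col4a5 and Col4a6 are neighbours on the X chromosome and start back to back, 1343 bases apart. The 250 bases before each start are shown since the gene on one side fell while that on the other was too dim to test. They lie at chrX:141475169-141475418 (Col4a5, plus strand) and chrX:141474077-141474326 (Col4a6, minus strand) of GRCm38.p6, with capitals as above.
Col4a5: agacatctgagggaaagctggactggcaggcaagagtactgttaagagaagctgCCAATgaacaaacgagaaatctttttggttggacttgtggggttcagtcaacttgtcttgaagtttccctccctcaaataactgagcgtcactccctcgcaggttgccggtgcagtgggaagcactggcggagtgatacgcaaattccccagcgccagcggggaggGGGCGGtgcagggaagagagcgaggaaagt
Col4a6: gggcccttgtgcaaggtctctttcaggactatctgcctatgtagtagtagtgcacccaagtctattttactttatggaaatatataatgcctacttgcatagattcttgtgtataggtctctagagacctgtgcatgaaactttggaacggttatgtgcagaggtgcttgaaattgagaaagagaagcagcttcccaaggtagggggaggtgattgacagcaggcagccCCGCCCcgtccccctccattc
Each window holds 1 GC box, and the Col4a5 window holds 1 CCAAT as well. The G and C content is 54.0% before Col4a5 and 47.6% before Col4a6, against a median of 52.4% over all promoters in the table.

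Fibrillar collagens were mostly near background, and by the brightest probe 0 of 6 tested genes passed. Col1a2, the alpha 2 chain of type I collagen, read 7.53 and 6.78 in Atm+/+ and 6.82 and 6.58 in Atm-/- (-0.46 ± 0.32, adjusted p = 0.383), and its difference was -0.83 without Atm+/+ replicate 2. Its partner Col1a1 read 5.53, 7.64, 5.44 and 5.41 on Atm+/+ replicates 1 and 2 and Atm-/- replicates 1 and 2. Col3a1, of type III collagen, read 7.01, 5.34, 5.28 and 5.45 at ILMN_1258629 in the same order. Each of these genes was thus above background on a single Atm+/+ array, Col1a1 on replicate 2 and Col3a1 on replicate 1, and neither was tested. Col27a1 behaved like Col1a1, with 6.83 on Atm+/+ replicate 2 and at most 5.56 elsewhere.

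Col5a1, which regulates the width of type I fibrils, was nearly level at 7.87 and 7.89 against 7.70 and 8.02 (-0.02 ± 0.26, adjusted p = 0.975). Col24a1, a minor fibrillar collagen, was higher on both Atm-/- arrays at both tested probes. ILMN_2857666 read 5.55 and 5.89 against 6.72 and 6.65 and narrowly missed the threshold (0.97 ± 0.26, adjusted p = 0.0536). It passed in 5 of its alternatives, some of which left out an Atm+/+ array. The second, ILMN_1231275, changed by 0.62 ± 0.30 (adjusted p = 0.224) and was at background on both Atm+/+ arrays, a signal at least 1.22-fold higher in Atm-/-. Col2a1, the main collagen of cartilage, was split. ILMN_1246054 read 6.28 and 6.33 against 5.20 and 5.03, a fall of 1.19 ± 0.25 to background (adjusted p = 0.0244, at least 1.58-fold) that was lost without Atm-/- replicate 1 (0.227) or 2 (0.317). The brighter ILMN_2759142 changed by -0.16 ± 0.25 (adjusted p = 0.722). Col11a1 (-0.31 ± 0.27) and Col11a2 (-0.09 ± 0.25) did not pass.

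No laminin probe passed the threshold, and 1 of the 7 tested laminin genes, Lamb2, had an unadjusted p under 0.05. Lamb2 encodes the beta 2 chain, found in vascular, glial and neuromuscular basement membranes. It read 8.27 and 9.08 in Atm+/+ and 7.29 and 7.72 in Atm-/-, so that the genotypes did not overlap. The difference was -1.17 ± 0.34 (adjusted p = 0.0686). It passed with array weights (adjusted p = 0.0441) and with the replicate block (0.00876), but not without either Atm-/- array. Its difference was -1.57 without Atm+/+ replicate 1 and -0.76 without Atm+/+ replicate 2. Of the other beta chains, Lamb3 read 6.34 and 6.99 against 6.43 and 6.17 (-0.37 ± 0.31, adjusted p = 0.467), with a difference of -0.69 without Atm+/+ replicate 1. The 1 probe of Lamb1, the beta chain shared by most brain laminins, was not tested, at 5.36 and 5.52 against 5.68 and 5.63.

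Alpha chains decide which receptors a laminin binds. Lama1, the alpha chain of meningeal and early basement membranes, read 7.88 and 6.71 in Atm+/+ and 7.17 and 7.24 in Atm-/-. The Atm+/+ arrays bracketed both Atm-/- arrays, and the difference of -0.09 ± 0.40 (adjusted p = 0.905) became 0.50 without Atm+/+ replicate 1 and -0.68 without replicate 2. Lama4, the main endothelial alpha chain with Lama5, read 6.07 and 5.77 against 5.37 and 5.38, both Atm-/- arrays being at background (-0.55 ± 0.26, adjusted p = 0.205, at least 1.21-fold lower). Its difference was -0.70 without Atm+/+ replicate 2. Lama5 read 5.82 and 6.05 against 6.11 and 5.89 (0.06 ± 0.26, adjusted p = 0.906). Lama2, the alpha chain lost in merosin-deficient muscular dystrophy, was above background on 1 array at 1 of its 3 probes and was not tested.

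The gamma 1 chain is part of most laminin trimers, and the 2 probes of Lamc1 differed in sign. ILMN_2774596 read 8.96 and 8.03 in Atm+/+ and 8.67 and 8.63 in Atm-/- (0.16 ± 0.35, adjusted p = 0.803). ILMN_2974798 read 8.66 and 8.82 against 7.79 and 8.37 (-0.66 ± 0.29, adjusted p = 0.182). At the first the genotypes overlapped and at the second they did not, so the probes give no common direction. Lamc3 read 6.58 and 6.23 against 6.28 and 6.00 at ILMN_3040693 (-0.26 ± 0.27, adjusted p = 0.566), with overlap.

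A further 19 member genes had no probe bright enough to test: Col4a3, Col4a6, Col1a1, Col27a1, Col3a1, Col5a2, Col5a3, Lama2, Lamb1, Col28a1, Col7a1, Col6a4, Col6a5, Col6a6, Col14a1, Col19a1, Col9a3, Col10a1 and Col13a1. Of all 110 probes, 50 were at background on every array and 18 were above it on a single array. With no filter on dim probes 0 of these 68 untested probes passed limma's threshold and 2 had an unadjusted p under 0.05. Over 2-fold differences between the Atm+/+ arrays occurred at 8 member probes and between the Atm-/- arrays at 0. Col6a3, Col12a1, Col20a1, Col21a1 and Lama3 were not analysed here.

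The other genes of the pathway were grouped by role, and their counts stand beside the 14.4% of all tested genes that passed. Of 10 tested partners of collagen and laminin in the basement membrane, 1 rose and 1 fell, with a median change of -0.36. Sparc, a collagen IV-binding glycoprotein, read 13.41 and 13.65 in Atm+/+ and 11.29 and 11.15 in Atm-/-, a fall of 2.31 ± 0.26 (adjusted p = 0.00231) that held whichever array was left out (adjusted p of at most 0.0275). Agrn, the heparan sulfate proteoglycan agrin, rose by 1.03 ± 0.26 (adjusted p = 0.0435), a call lost when 1 array was left out (up to 0.373). At an unadjusted p under 0.05 there were 2 higher and 3 lower. The nidogens, which bridge laminin and type IV collagen, did not pass. Nid1 read 6.92 and 7.90 against 6.26 and 6.44 (-1.06 ± 0.36, adjusted p = 0.0974), and Nid2 changed by -0.30 ± 0.53. Perlecan, the Hspg2 product, changed by -0.42 ± 0.25 (adjusted p = 0.308), and the fibulin gene Fbln2 by 1.16 ± 0.39 (adjusted p = 0.0967).

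Of 21 tested genes for collagen folding, modification and crosslinking, 3 fell and 18 did not pass, a share near that of all tested genes, with a median of -0.24. At an unadjusted p under 0.05 there were 3 higher and 4 lower. Those that fell were Pcolce (-1.82 ± 0.31, adjusted p = 0.0111) and Pcolce2 (-1.46 ± 0.37, 0.0433), which enhance procollagen C-propeptide removal, and Lox, the crosslinking lysyl oxidase. Lox fell to background, at least 1.91-fold (adjusted p = 0.0271). Among 12 tested collagen and laminin receptors, the laminin-binding integrin gene Itga7 fell by 1.68 ± 0.25 (adjusted p = 0.00689) and the collagen receptor kinase gene Ddr1 by 1.64 ± 0.30 (0.0143), and the other 10 did not pass. The dystroglycan gene Dag1 changed by 1.22 ± 0.41 (adjusted p = 0.0934). Each of the 5 calls in these 2 lists was lost when 1 array was left out, at adjusted p of up to 0.336. With 1 array left out, 0 to 5 folding genes rose and 0 to 7 fell, and 0 to 1 receptor genes rose and 0 to 4 fell.

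Fibril-associated matrix proteins gave 5 falls among 11 tested genes, with a median of -0.92. Ogn (osteoglycin) fell by 2.57 ± 0.32, Thbs2 (thrombospondin 2) by 1.72 ± 0.25, Fn1 (fibronectin) by 1.95 ± 0.30, Dcn (decorin) by 1.66 ± 0.28 and Lum (lumican) by 1.72 ± 0.30, at adjusted p of 0.00364 to 0.0118. With 1 array left out, between 1 and 7 members fell. Ogn kept its call throughout (adjusted p of at most 0.0294), and the other 4 did not (up to 0.162). Of 14 tested proteases and inhibitors, Mmp17 rose by 3.23 ± 0.41 (adjusted p = 0.00395), and Timp4 and Mmp14 fell by 2.64 ± 0.29 and 1.06 ± 0.25 (adjusted p = 0.00224 and 0.0335). Mmp17 and Timp4 held whichever array was left out, and Mmp14 did not (adjusted p of up to 0.349), with 1 to 2 genes of this list rising and 1 to 6 falling.

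Markers of the cell types that make these proteins moved in the same arrays. Their counts stand beside the 14.4% of all tested genes that passed, 6.89% lower and 7.5% higher. Of 18 tested markers of meningeal and perivascular fibroblasts, 12 fell, led by Ogn, Serping1 (-2.68) and Foxc1 (-2.07), with a median of -1.45. Their summed linear signal was 43663 and 40643 in Atm+/+ and 14935 and 17893 in Atm-/-. Among 11 tested choroid plexus markers 9 fell, with a median of -1.34 and a summed signal of 70852 and 62908 against 35105 and 27530. Most of that sum was Ttr, which read 15.91 and 15.72 in Atm+/+ and 14.94 and 14.56 in Atm-/-. The mean log2 signal of the 11 markers was 9.82 and 9.77 against 8.50 and 8.36. Kl (klotho) fell by 2.10 ± 0.26, Folr1 (a folate receptor) by 1.89 ± 0.25 and Otx2 (a homeobox factor) by 1.53 ± 0.26, at adjusted p of 0.00367 to 0.0116. Of 6 tested ependymal markers 5 fell, with a median of -1.55 and a summed signal of 2957 and 2881 against 959 and 857. The part of these cell types in the falls of Col18a1, Col8a2, Col8a1, Col6a2 and Col4a5 was not tested. When 1 array was left out, 2 to 15 fibroblast, 1 to 11 choroid plexus and 1 to 5 ependymal markers fell.

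Endothelial markers rose or did not pass. Their share of calls was not far from the 14.4% of all tested genes that passed, 6.89% lower and 7.5% higher. Of 17 tested endothelial markers 3 rose and 14 did not pass, with a median of 0.58. They were Ly6c1 (1.68 ± 0.28), Tek (1.42) and Esam (1.46), and all 3 calls were lost with 1 array left out, when between 0 and 11 markers rose and at most 1 fell. The summed endothelial signal was 14466 and 9643 in Atm+/+ and 16816 and 19534 in Atm-/-. Of 7 tested markers of pericytes and smooth muscle, Rgs5 rose (1.98 ± 0.25, adjusted p = 0.00416, up to 0.0610 with 1 array left out), the median was 0.26, and 1 marker was higher and 2 were lower at an unadjusted p under 0.05. With 1 array left out at most 2 rose and at most 2 fell. The summed signal was 1838 and 1358 against 2031 and 1922. The defining mural genes Pdgfrb, Kcnj8, Higd1b, Tagln, Myh11 and Cnn1 were too dim to test. Of 12 tested astrocyte markers 5 fell, with a median of -1.13, and between 1 and 8 fell with 1 array left out. Of 11 tested markers of myelinating oligodendrocytes 2 fell, and of 9 of their precursors 1 rose and 2 fell, and with 1 array left out up to 4 of either list fell. The share of calls among myelinating oligodendrocyte markers was not far from that of all tested genes. Microglia and border macrophages gave 1 fall among 11, Mrc1, a share also not far from it, with a median of 0.29. At an unadjusted p under 0.05, 3 of these markers were higher and 1 was lower. Of 4 tested genes on the Schwann cell list, Egr2 rose (4.75) and Pmp22 fell (-1.76), so the calls share no direction. Mbp, on this list and on that of myelinating oligodendrocytes, did not pass. Which cells gave the Egr2 signal was not tested. Of 3 tested blood markers 0 passed with limma, and 0 had an unadjusted p under 0.05.

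**Figure D4:**
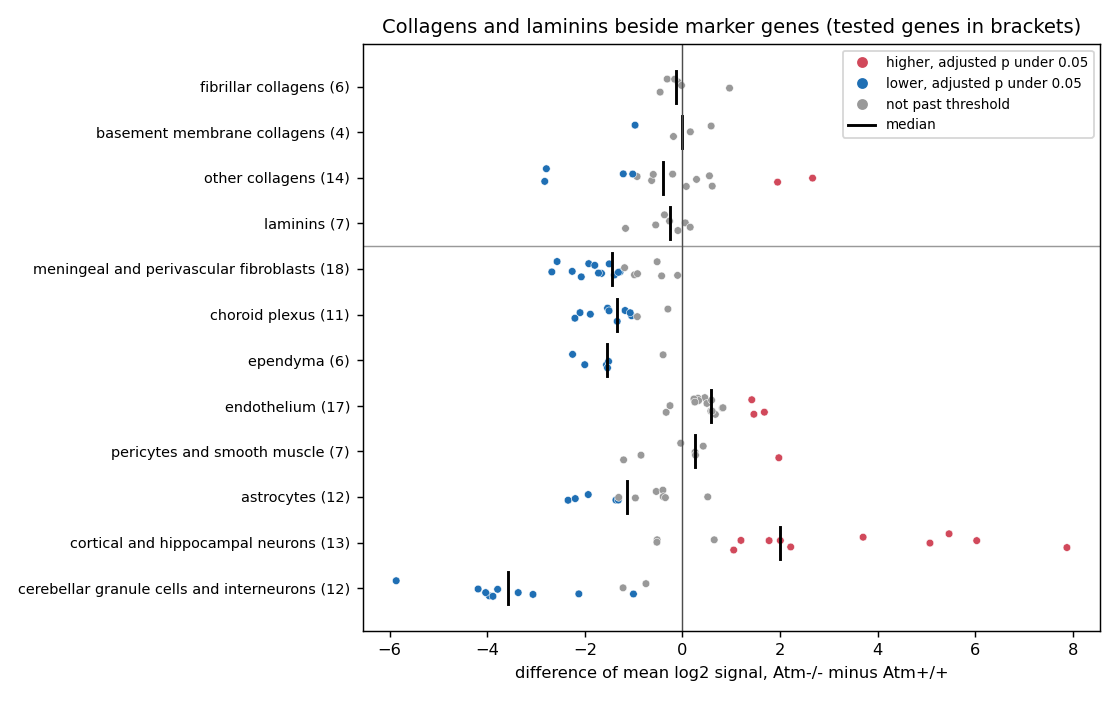
Difference of mean log2 signal, Atm-/- minus Atm+/+ (horizontal axis), of each tested gene by its brightest probe, for the 4 classes of collagens and laminins and for 8 marker lists. Points are genes and the vertical bar is the median, which lies at -0.40 for the other collagens, -1.45 for fibroblast markers, -1.34 for choroid plexus markers and 0.58 for endothelial markers.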

How the data were processed

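Per the labels' protocols, brain RNA was extracted with Trizol and turned into biotin-labelled complementary RNA with an Ambion MessageAmp kit. The log2 signals analysed are those the authors deposited, with software and normalization not given in the sources used here. The log base was inferred from the range of 4.47 to 16.1, and arrays of equal rank differed by at most 0.0792, as after quantile normalization, which hides a shift of most genes in 1 direction. A table of signals before normalization holds 8 columns whose names match no single sample, so they were not used. 

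The background level of 5.64 is the mode of all values (5.05) plus 3 SD, the SD of values under the mode being 0.196. A change of a probe at or below it on every array of a genotype is given as at least N-fold, the brighter mean against this level. The linear model of limma 3.58.1 (R 4.3.3), with empirical Bayes moderation and no covariates, was fitted to all 4 arrays (2 residual and 5.21 prior degrees of freedom). The procedure was tested on simulated data in which both genotypes had the same spread. The real pairs differed in spread, so that test does not show how the procedure behaves on them. Symbols came from the platform annotation. Upstream sequences came from RefSeq promoters on GRCm38.p6, which held 38 of the 50 genes. The members, classes and lists were chosen with earlier results of these data known. By rule, every member is accounted for, those past the threshold and all tested type IV and laminin chains with values per array, and from each list up to 4 pathway genes or 3 markers of smallest p. A few genes further named after their values were seen are Nid1, Nid2, Hspg2, Fbln2, Lum and Dag1. Precision is limited by having 2 arrays per genotype.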

Additional observations from a re-analysis of the deposited data

How the results depend on the processing

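The 11 collagen probes past the threshold kept their direction in every alternative run that tested them. Col18a1, Col8a2 and Col22a1 also kept the call in each, and the other 8 calls were lost without Atm-/- replicate 1 and without replicate 2. Leaving out 1 array moved the calls over all probes from 2917 to between 669 and 8319, those of collagen and laminin probes from 11 to between 3 and 22, of fibrillar genes from 0 to between 0 and 2, of type IV genes from 1 to between 0 and 2, of other collagen genes from 6 to between 3 and 9, and of laminin genes from 0 to between 0 and 3. The low counts came without either Atm-/- array and the high counts without either Atm+/+ array. A run without an Atm-/- array took its measured spread from the Atm+/+ pair alone. Without an Atm+/+ array the measured spread was that of the Atm-/- pair alone. The replicate block, with numbers that did not pair the arrays (deviations sharing a number correlated at 0.06 across probes), gave 4551 probes in all, 17 collagen and laminin probes, 1 fibrillar gene and 1 laminin gene. Array weights gave 1 fibrillar and 1 laminin gene, an adjusted p under 0.1 gave 4834 probes, 1 fibrillar and 1 laminin gene, a background level 5 SD above the mode gave 1 fibrillar gene, an intensity trend gave 0 type IV genes, and testing only probes above background on all 4 arrays left 27 member probes and 6 calls. In 9 probes that did not pass, the sign of the difference turned with 1 array left out, over a range of -0.47 to 0.11 for Col4a4, -0.21 to 0.018 for Col11a2, -0.18 to 0.14 for Col5a1, -0.68 to 0.50 for Lama1, -0.055 to 0.17 for Lama5, -0.31 to 0.63 for Lamc1 at ILMN_2774596, -0.49 to 0.12 for Lamc3 at ILMN_1258270, -0.14 to 0.30 for Col17a1 at ILMN_1216228 and -0.46 to 0.055 for Col23a1 at ILMN_2650447. The reversals without Atm-/- replicate 1 were Col5a1 (0.14) and Lama5 (-0.05), that without Atm-/- replicate 2 was Col17a1 (-0.06), and the rest came without an Atm+/+ array. The cause of these changes was not tested.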
